A study of Nicotiana tabacum with 36 samples.

Results

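Root of tobacco (*Nicotiana tabacum* cv. K326) harvested at ZT12, 12 h after dawn, was compared with root harvested at dawn (ZT0). The 6 libraries were chosen by the tissue and time-point in their labels, 3 biological replicates at ZT12 and 3 at ZT0, out of 36 libraries in the series. All plants were 56 days old, of the same cultivar and untreated, and were kept on a day of 18 h light and 6 h dark, so ZT12 falls within the light period, ZT0 at its start and ZT18 at its end. The series also holds ZT6 and ZT18 of root and all 4 time-points of whole shoot and shoot apex, with 3 replicates each. The labels describe the tissue as root only, without naming a cell type or zone, and the sources used here do not state whether a replicate was 1 plant or several. P-values therefore measure the spread between these samples.

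The plant circadian clock is a set of transcription factors that repress and activate each other in turn, so that their transcripts peak at fixed times of day and pass that timing on to large groups of other genes. Dawn-phased factors such as LHY and CCA1 repress evening-phased ones such as TOC1, which act back on them. In *Arabidopsis* the root has its own clock, whose output differs from that of the shoot and which is kept in time with signals from the shoot and with light. In tobacco the root is also the site where nicotine is made. The values below are RNA abundances of predicted gene models, which carry identifiers and no gene names in the sources used here (0 of 69500 matched an entry of RefSeq for *N. tabacum*), and no model is assigned a function. Tobacco is an allotetraploid, and a read that fits both copies of a gene is shared between them by the estimation software, so values of near-identical copies are uncertain.

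Depth was 20000601, 14536153 and 11223577 expected counts in the 3 ZT12 libraries and 15779324, 11095988 and 14249111 in the 3 ZT0 libraries. None of the 6 is among the 5 libraries of the series listed with few mapped reads. Each correlated more closely with every other root library (lowest r 0.912) than with any library of shoot or shoot apex (highest r 0.854). The libraries differed in another way, which cut across the time-points. The mean inverse length of the gene models counted, a measure that is high when reads fall in short models, was 0.828, 0.815 and 0.670 per kb at ZT12 and 0.874, 0.706 and 0.685 per kb at ZT0. ZT12 replicates 1 and 2 and ZT0 replicate 1 were thus high, and the other 3 libraries were low. What sets the 2 kinds of library apart was not tested, and since both kinds occur at both time-points, results are also given with this measure as a covariate.

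Most gene models were measured at both times. With TPM (transcript abundance scaled by model length and library depth) of at least 1 in each of the 3 replicates, 36963 gene models were expressed in root at ZT12 and 35194 at ZT0, and 34568 of these were shared. A further 2395 passed the rule at ZT12 and not at ZT0, and 626 passed it at ZT0 and not at ZT12. These were mostly weak and near the threshold, with a median TPM of 1.90 over the 6 libraries for the 3021 together. Of the 2395, 1771 reached a TPM of 1 in 2 of the 3 ZT0 libraries as well, and 525 in 1 of them. Only 99 gene models were at or above 1 in all 3 ZT12 libraries and below 1 in all 3 ZT0 libraries, and 26 showed the opposite.

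Few gene models differed between root at ZT12 and root at ZT0 by more than the spread between replicates allows to be called. Of 39333 gene models tested, 2 were higher at ZT12 (0.00508% of those tested) and 0 were lower (0.0%), by the quasi-likelihood test of edgeR (Benjamini-Hochberg adjusted p, threshold 0.05). Before adjustment, 1834 (4.66%) had p under 0.05, of which 1022 were higher (2.6%) and 812 lower (2.06%). A share of about 0.05 would have such a p with no change in any gene model, so this number is not by itself a sign of change. DESeq2, also without the length covariate, gave a similar number, 2017, before adjustment, and 32 higher and 21 lower after it. With the covariate in edgeR's test, 4834 (12.3%) had p under 0.05 before adjustment, more than a share of 0.05. Of these, 2399 were higher (6.1% of those tested) and 2435 lower (6.19%). Without the covariate, the smallest adjusted p of a lower gene model in edgeR's test was 0.0988. The median log2 fold change (ZT12 over ZT0) was -0.01, and 90% of gene models lay between -0.57 and 0.73. A single log2 fold change had a median standard error of 0.39, with quartiles of 0.27 and 0.54, so a change of under 1 on the log2 scale was not detectable for most gene models at this depth and replication. Changes of at least 1 in size were fitted for 1457 gene models (3.7%), and 2 of these were called. A fitted change above 1 was thus not assured of a call either.

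**Figure D1:**
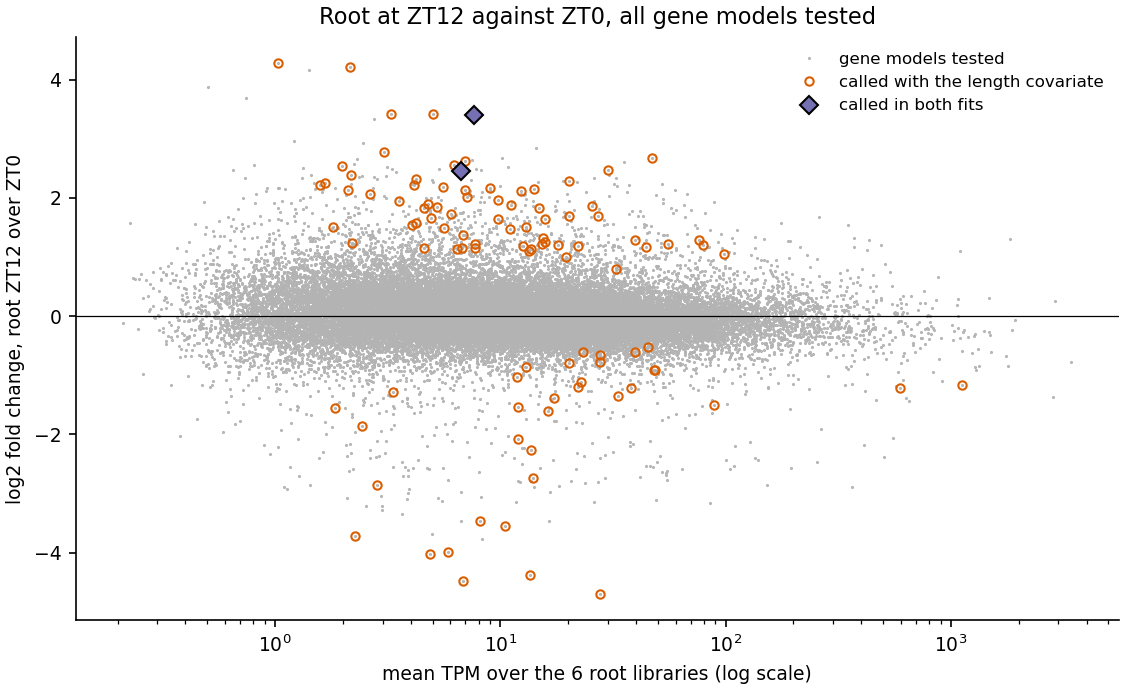
Log2 fold change of root ZT12 over ZT0 against mean TPM over the 6 libraries (log axis), with 1 grey point for each of the 39333 gene models tested. Diamonds mark the 2 gene models called in both fits, and open circles the other gene models, of 104 in all, called when the mean inverse length of each library was a covariate; most grey points lie close to 0.

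The larger of the 2 increases was that of Nitab4.5_0001617g0060.1, a model of 999 bases. Its TPM was 16.8, 15.9 and 9.41 in the 3 ZT12 libraries, against 1.01, 1.15 and 1.74 in the 3 ZT0 libraries. The groups did not overlap, which the rule for naming gene models required, and the lowest ZT12 library was several times the highest ZT0 library. The means were 14.0 ± 4.03 TPM at ZT12 and 1.30 ± 0.387 TPM at ZT0 (SD, n = 3 each), and the log2 fold change was 3.40 ± 0.46 (SE, adjusted p = 0.0183, edgeR's quasi-likelihood test). Non-overlap also fixes the direction of the difference within both kinds of library. Its size was 3.11 on the log2(TPM + 1) scale among those with shorter models counted and 2.10 among those with longer ones. With the length covariate the log2 fold change was 3.37 ± 0.33 (adjusted p = 5.31e-05, edgeR's quasi-likelihood test). Across all 22 alternatives it was between 2.68 (on the log2(TPM + 1) scale, which understates it) and 3.63, and the adjusted p ranged from 1.58e-10 to 0.676 with 15 of 22 under 0.05.

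The second was Nitab4.5_0006508g0040.1, a model of 650 bases, at 14.99, 12.4 and 6.63 TPM in the ZT12 libraries and 1.35, 1.78 and 3.06 TPM in the ZT0 libraries. Replicate 3 was the lowest of its group at ZT12 and the highest at ZT0. The groups did not overlap, which the naming rule required here too. Means were 11.4 ± 4.28 TPM at ZT12 and 2.06 ± 0.89 TPM at ZT0 (SD, n = 3 each). The log2 fold change was 2.45 ± 0.39 (SE), with an adjusted p of 0.0490 in edgeR's quasi-likelihood test, just inside the threshold. With the length covariate it was 2.43 ± 0.38 (adjusted p = 0.00511, edgeR's quasi-likelihood test). The adjusted p ranged from 2.57e-05 to 0.9998 over the 22 alternatives, and 13 were under 0.05. Both calls were lost when ZT12 replicate 1, ZT12 replicate 2, ZT0 replicate 1 or ZT0 replicate 2 was left out, where the adjusted p was between 0.103 and 0.188 for Nitab4.5_0001617g0060.1 and between 0.112 and 0.278 for Nitab4.5_0006508g0040.1 in edgeR's quasi-likelihood test.

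No gene model was called lower in the fit without the covariate, so 2 are shown from the fit with it, a choice made after their values were seen. Among those called lower, they had the largest decreases with groups that do not overlap and a mean TPM of at least 10 at ZT0. Larger decreases were called in gene models outside this rule, down to -4.87 for Nitab4.5_0000876g0040.1. Nitab4.5_0002950g0060.1 (506 bases) was at 4.26, 7.15 and 3.23 TPM at ZT12, against 20.6, 34.6 and 12.2 TPM at ZT0. In both groups replicate 2 was the highest and replicate 3 the lowest, and no ZT12 library reached the lowest ZT0 library. Its log2 fold change was -2.27 ± 0.65 (SE) with an adjusted p of 0.490, and -2.49 ± 0.46 with an adjusted p of 0.0178 with the covariate, both in edgeR's quasi-likelihood test. Nitab4.5_0000005g0090.1 (1407 bases) was at 3.95, 3.85 and 6.39 TPM at ZT12, against 10.2, 22.2 and 25.4 TPM at ZT0, without overlap by the rule. Its log2 fold change was -2.07 ± 0.40 (SE) with an adjusted p of 0.138, and -1.98 ± 0.27 with an adjusted p of 0.000951 with the covariate, in the same test. Over the 22 alternatives, 3 gave an adjusted p under 0.05 for Nitab4.5_0002950g0060.1 (range 0.00811 to 1.0) and 5 for Nitab4.5_0000005g0090.1 (range 0.000374 to 0.9998). The 3 were the covariate fit by which the gene models were chosen and 2 variants of it added after the data had been seen. No other setting passed for Nitab4.5_0002950g0060.1. The same 3 fits were among the 5, beside DESeq2 and limma on log2(TPM + 1). All 4 gene models kept their direction under every alternative. Since the naming rule required groups that do not overlap in these same libraries, that outcome was largely set in advance.

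**Figure D2:**
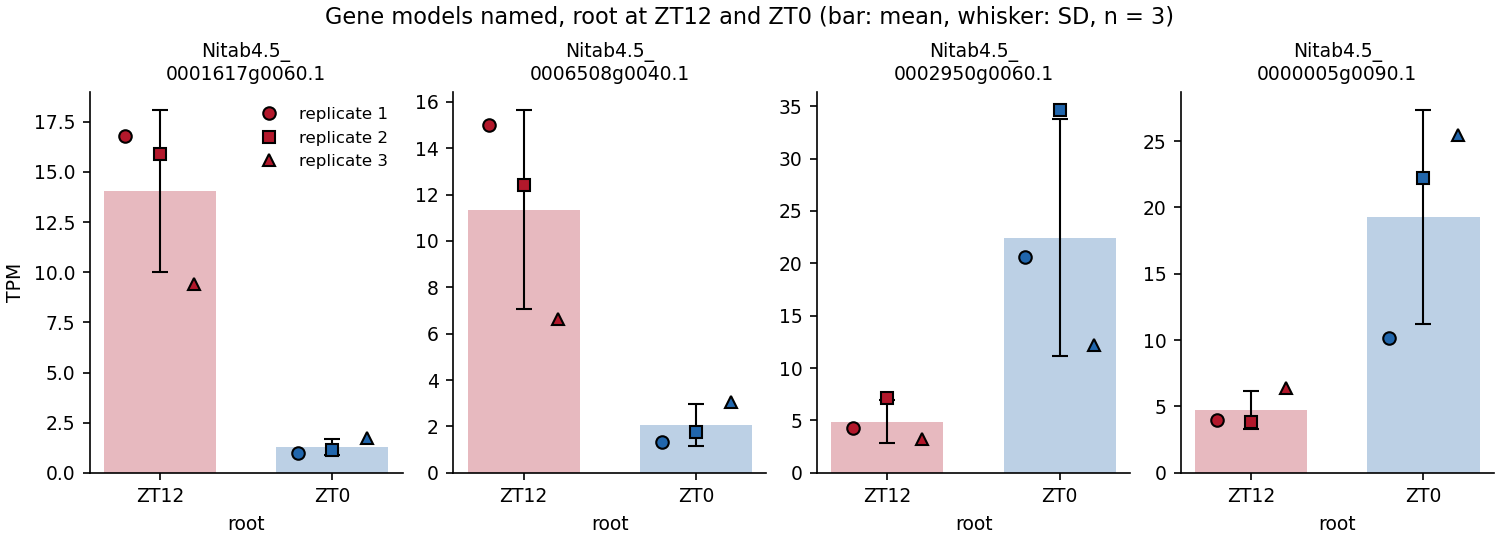
TPM of the 4 gene models in each root library at ZT12 (left) and ZT0 (right), with bars for the mean, whiskers for the SD and a symbol for each replicate (n = 3). The ZT12 and ZT0 libraries do not overlap in any panel, as the rule for naming the models required. The first 2 models are higher at ZT12 and the last 2 lower.

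Over the whole day these gene models followed different courses in root. Nitab4.5_0001617g0060.1 was at 11.8, 15.4 and 15.1 TPM at ZT6 and at 3.73, 3.59 and 3.48 TPM at ZT18. Its level was thus low at dawn, in the same range at ZT6 as at ZT12, and intermediate at the end of the light period. Nitab4.5_0006508g0040.1 had the same order, with 9.86 to 10.99 TPM at ZT6 and 1.60 to 4.40 TPM at ZT18. Nitab4.5_0000005g0090.1 was at 8.93 to 14.8 TPM at ZT6 and 4.94 to 10.6 TPM at ZT18, between its ZT0 and ZT12 means of 19.3 and 4.73 TPM. Nitab4.5_0002950g0060.1 was at 11.1 to 16.7 TPM at ZT18, and its 3 ZT6 libraries were far apart, at 5.49 to 77.3 TPM. Root ZT6 replicates 1 and 2 and root ZT18 replicate 2 are listed with few mapped reads, and the highest of these ZT6 values is from replicate 2. The deposited total of root ZT18 replicate 2, 13332241 expected counts, is not low and does not match that listing; it was left out of the fit as listed.

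In shoot and shoot apex the 4 gene models did not behave alike. Nitab4.5_0001617g0060.1 was a root transcript, at no more than 0.88 TPM in any shoot library and 0.07 TPM in any shoot apex library. Its change in root exceeded that in shoot by 3.67 on the log2 scale (adjusted p = 0.0157, edgeR's quasi-likelihood test of the difference). It was named for its increase in root, and this test reuses those root values, so the choice favours a small p. In shoot its expected counts were only 3 to 5 at ZT0 and 1 to 5 at ZT12. In shoot apex it was at 0 in all libraries of both time-points and no fold change can be given. Nitab4.5_0006508g0040.1 was higher at ZT12 in all 3 tissues, at 20.4 to 23.8 TPM against 1.82 to 4.57 TPM at ZT0 in shoot and at 14.9 to 24.7 TPM against 3.84 to 4.23 TPM at ZT0 in shoot apex. The log2 fold change was 2.72 in shoot and 1.96 in shoot apex (adjusted p = 6.2e-05 and 0.00162, edgeR's quasi-likelihood test), and the difference of root from either was within error, at -0.26 and 0.49.

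Nitab4.5_0000005g0090.1 was lower at ZT12 in the aerial tissues too, and by more. It was at 1.15 to 1.66 TPM against 10.9 to 32.5 TPM at ZT0 in shoot (log2 fold change -3.79), and at 0.26 to 0.83 TPM against 14.1 to 16.5 TPM at ZT0 in shoot apex (log2 fold change -5.16). At ZT0 the 3 tissues were at similar levels, with a mean TPM of 19.3 (root), 18.6 (shoot) and 15.7 (shoot apex). The smaller decrease in root differed from that in shoot apex by 3.09 on the log2 scale (adjusted p = 0.00416, edgeR's quasi-likelihood test of the difference), and from that in shoot by 1.72 (adjusted p = 0.174). With the length covariate the difference from shoot was 1.74 and passed the threshold (adjusted p = 0.00933, edgeR's quasi-likelihood test), and that from shoot apex was 3.45 (adjusted p = 1.28e-05). Nitab4.5_0002950g0060.1 had a log2 fold change of -1.53 in shoot and -0.36 in shoot apex, neither past the threshold (adjusted p = 0.237 and 0.919, edgeR's quasi-likelihood test). With the length covariate the value in shoot was -1.48 and passed it (adjusted p = 0.0235), while that in shoot apex was -0.03 (adjusted p = 0.998, edgeR's quasi-likelihood test).

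**Figure D3:**
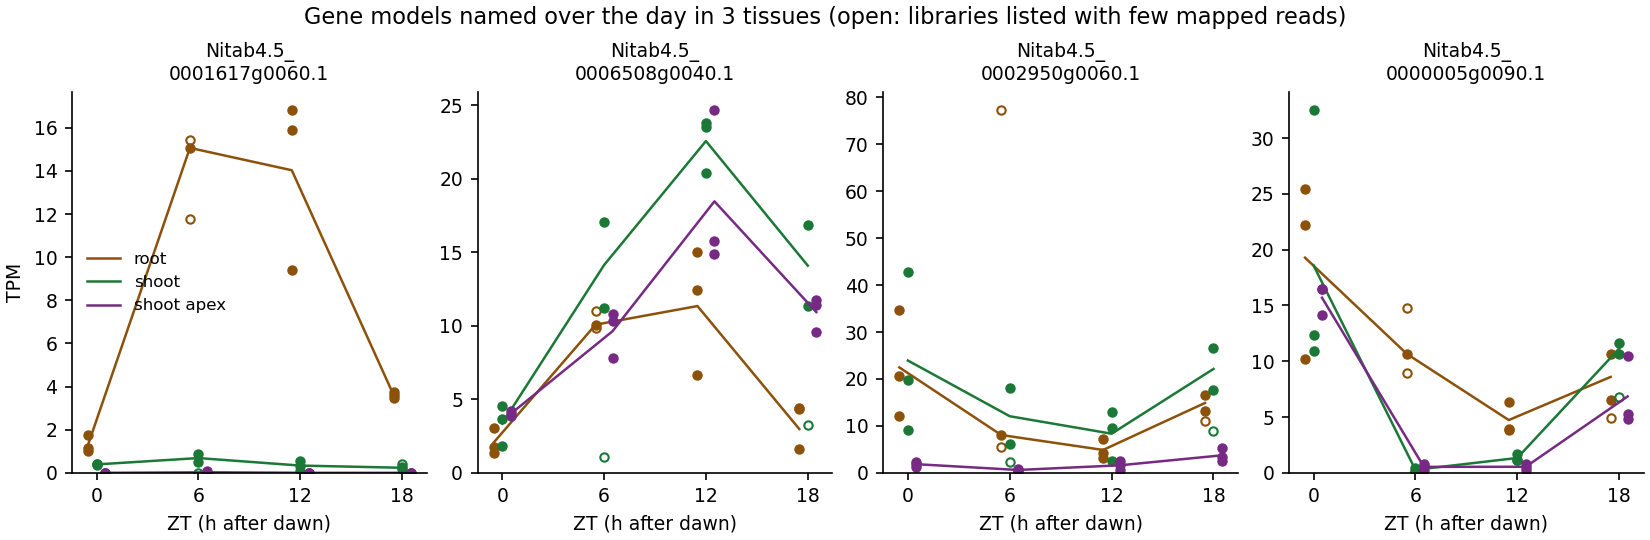
TPM of the 4 gene models at the 4 time-points (h after dawn) in root, shoot and shoot apex, with a point for each library and lines through the means of the filled points. Open points are the 5 libraries listed with few mapped reads, which are outside the means; the first model is near 0 outside root, and the second is higher at ZT12 than at ZT0 in all 3 tissues.

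With the mean inverse length of each library as a covariate, the median standard error was 0.24 in place of 0.39, and 69 gene models were higher at ZT12 (0.175% of those tested) and 35 lower (0.089%), 104 in all (0.264%), by the same test and threshold. Both gene models called without the covariate were among the 69. Log2 fold changes ran from 0.85 to 4.29 among the 69, with a median of 1.76, and from -4.87 to -0.54 among the 35, with a median of -1.35. A change of at least 1 in size was found for 67 of the 69 and 26 of the 35, beside 1387 of all tested (3.53%). One of at least 2 was found for 25 and 11, beside 209 of all tested. The calling favours large fitted changes, so these counts are a description. TPM did not overlap between ZT12 and ZT0 for 65 of the 69 and 19 of the 35, beside 4.94% higher and 2.07% lower of all tested. All 69 were higher, and all 35 lower, within both kinds of library, as 16599 and 8296 of the 39333 were; these values rest on the same libraries as the calls. The number called depended on single libraries. It was 444 higher and 371 lower without ZT0 replicate 3, 8 and 9 without ZT0 replicate 1, 29 and 12 without ZT0 replicate 2, 32 and 3 without ZT12 replicate 1, 85 and 9 without ZT12 replicate 2, and 44 and 20 without ZT12 replicate 3.

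The gene models called in this way were ordinary in length and moderate in level. Their median lengths were 1374 bases for the 69 and 1305 bases for the 35, against 1204 bases for all tested. The median of mean TPM was 11.6 at ZT12 and 3.94 at ZT0 for the 69, and 8.22 at ZT12 and 24.9 at ZT0 for the 35, against 10.7 at ZT12 and 10.2 at ZT0 for all tested. By the scaffold and order numbers in their identifiers, the 69 lay on 66 scaffolds and the 35 on 35, with 0 pairs of neighbours among either. All tested lay on 10320 scaffolds with 21130 such pairs. Lists as short as these would seldom hold a pair, so the absence of pairs is only a description. In libraries of ZT6 and ZT18, which are in the fit but outside the contrast, levels in root exceeded those in shoot by a median of 0.75 on the log2(TPM + 1) scale for the 69 and 0.88 for the 35, beside 0.33 for all tested. Against shoot apex the medians were 1.06, 0.79 and 0.33 in the same order.

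Across the day in root, most of these gene models had their extremes at the 2 compared times. The fitted level of the 69, in log2 CPM, had medians of 1.38 (ZT0), 2.88 (ZT6), 3.26 (ZT12) and 2.04 (ZT18). Thus ZT6 was near ZT12, and ZT18 lay between. Those of the 35 were 4.47 (ZT0), 4.04 (ZT6), 3.03 (ZT12) and 3.29 (ZT18), falling to their lowest at ZT12. Of the 69, 58 were highest at ZT12 and 59 lowest at ZT0, beside 21.6% and 23.3% of all tested. Of the 35, 28 were highest at ZT0 and 24 lowest at ZT12, beside 23.7% and 22.9% of all tested. The choice of gene models favours these counts, since ZT12 and ZT0 were used to call them. The levels at ZT6 and ZT18 rest on 1 and 2 root libraries, as the listed ones were left out.

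The same contrast in shoot and shoot apex compares other libraries, although these were in the fit that called the 104 and share its estimate of the spread and its covariate slope. Of the 69 gene models higher in root, 46 (66.7%) had a positive log2 fold change in shoot and 49 (71.0%) in shoot apex, beside 43.1% and 49.4% of all tested. In shoot 23 were called higher and 0 lower, and in shoot apex 22 were called higher and 2 lower, where 1020 and 930 of all tested were called higher (2.59% and 2.36%). In both aerial tissues together, 20 of the 69 were called higher. Of the 35 lower in root, 29 (82.9%) were negative in shoot and 27 (77.1%) in shoot apex, beside 56.2% and 48.7% of all tested. They included 11 called lower in shoot and 6 in shoot apex, all 6 of them in both, while none of the 35 was called higher in either. Of all tested, 630 were called lower in shoot and 1202 in shoot apex (1.6% and 3.06%).

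**Figure D4:**
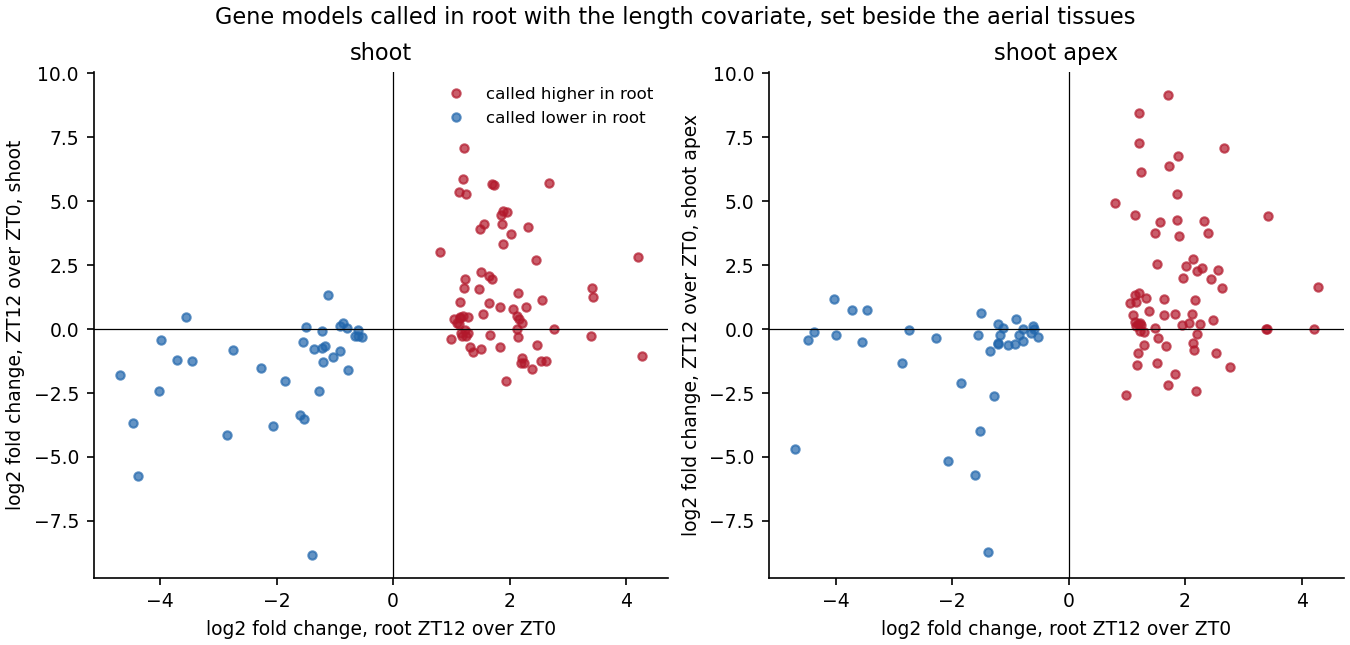
Log2 fold change of ZT12 over ZT0 in shoot (left) and shoot apex (right) against that in root, for the 69 gene models called higher and the 35 called lower in root with the length covariate; the axes show values without the covariate. More of the 69 lie above 0 than below in both panels (46 in shoot, 49 in shoot apex), and more of the 35 lie below 0 (29 and 27).

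The contrast was also read from the aerial side. Of the gene models tested, 501 were called higher at ZT12 in both shoot and shoot apex, and 354 lower in both. In root, 321 of the 501 (64.1%) had a positive log2 fold change, beside 48.7% of all tested, and 242 of the 354 (68.4%) a negative one, beside 51.3%. TPM in root did not overlap and was higher at ZT12 for 102 of the 501 (20.4%, beside 4.94% of all tested), and was lower for 49 of the 354 (13.8%, beside 2.07%). The median log2 fold change of the 501 was 0.14 in root (quartiles -0.10 and 0.45), beside aerial medians of 1.75 (shoot) and 1.62 (shoot apex). For the 354 it was -0.18 in root (quartiles -0.47 and 0.10), beside -1.79 (shoot) and -1.90 (shoot apex). With the length covariate the medians in root were 0.14 and -0.18. A root change of at least 1 was fitted for 43 of the 501 (8.58%, beside 2.54% of all tested), and of -1 or less for 17 of the 354 (4.8%, beside 1.16%). Those gene models were selected for large aerial changes, so their aerial medians are a description.

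**Figure D5:**
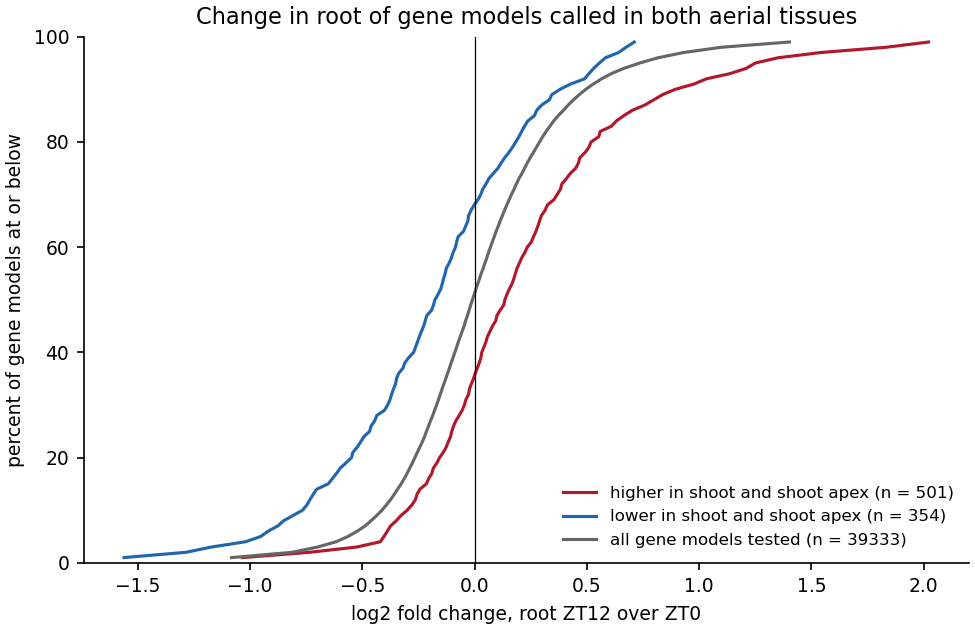
Percent of gene models at or below each log2 fold change of root ZT12 over ZT0, from the 1st to the 99th percentile, for the 501 gene models called higher in both shoot and shoot apex, the 354 called lower in both and all 39333 tested. The line of the 501 lies to the right of all tested through most of its course (median 0.14 against -0.01) and the line of the 354 to the left (median -0.18).

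The difference between tissues was then tested itself. The change from ZT0 to ZT12 was higher in root than in shoot for 206 gene models (0.524% of those tested) and lower for 343 (0.872%), and it was higher in root than in shoot apex for 435 (1.11%) and lower for 293 (0.745%), by edgeR's interaction test at the same threshold. With the length covariate the counts were 931 (2.37%) and 1327 (3.37%) against shoot, and 1502 (3.82%) and 1206 (3.07%) against shoot apex. In shoot apex the mean inverse length was 0.874, 0.797 and 0.979 per kb at ZT0 and 0.702, 0.884 and 0.891 per kb at ZT12. All ZT0 libraries of shoot apex were thus of the high kind, while ZT12 replicate 1 was of the low kind. What part of the counts without the covariate rests on this was not tested. In the fit without the covariate 1650 gene models were called between ZT12 and ZT0 in shoot (4.19%) and 2132 in shoot apex (5.42%), against 2 in root. With it, 4919 were called in shoot (12.5%) and 6067 in shoot apex (15.4%), against 104 in root (0.264%). A larger share of gene models was therefore called in both aerial tissues than in root under either fit; the numbers themselves were not compared by a test.

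The most abundant transcripts of root were more often lower than higher at ZT12. The 100 gene models with the highest mean TPM over the 6 libraries, between 575.1 and 3424 TPM, made up 8.97% ± 0.225 of all TPM at ZT12 and 10.3% ± 2.23 at ZT0 (SD, n = 3 each), a difference smaller than the spread at ZT0. Their median log2 fold change was -0.25 (quartiles -0.55 and 0.01), with a range of -1.44 to 1.30, and 9 had a change of at least 1 in size, beside 3.7% of all tested. The median log2 fold change also fell with level across all gene models tested. In 5 groups of gene models, from lowest to highest mean TPM, it was 0.072, 0.025, -0.009, -0.037 and -0.075. The tilt towards lower values is thus not particular to the 100, though their median lay below that of the highest group. This drift was not tested. TPM did not overlap and was lower at ZT12 for 8 of the 100 (2.07% of all tested) and higher for 2 (4.94%). None was called without the covariate, and 2 were called lower and 0 higher with it (0.089% and 0.175% of all tested, edgeR's quasi-likelihood test).

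Replicate error differed with level and length. The median standard error of the log2 fold change was 0.50 in the fifth of gene models with the lowest mean TPM (0.212 to 3.44) and 0.37 in the fifth with the highest (29.1 to 3424). It was 0.55 in the fifth with the shortest models (126 to 732 bases), 0.29 in the next to longest (1400 to 1949 bases) and 0.41 in the longest. With the covariate it was 0.32 in the shortest and 0.20 in the longest. The median log2 fold change itself was 0.08 in the shortest models and -0.09 in the longest, beside the slightly higher mean inverse length of the ZT12 libraries (0.771 per kb, against 0.755 per kb at ZT0).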

How the data were processed

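RNA was sequenced as random-primed libraries from root, shoot and shoot apex, and the 6 root libraries of ZT12 and ZT0 are compared here. The authors mapped reads to 69500 gene models predicted on assembly Nitab4.5 and deposited, for each library, expected counts, which are estimated by RSEM and not normalised, and TPM, which the authors' software scales by model length and depth. The submitters' processing notes name CASAVA 1.9.4, Bowtie 1.1.0 and RSEM 1.2.7. The effective length in the deposited files equals the full model length. A deposited table of the whole series was not used here.

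Expected counts were rounded for the tests. Models were kept by filterByExpr (minimum count 10, minimum total count 15) on the 6 root libraries, which left 39333. Counts were normalised by TMM and fitted with edgeR 4.0.16 (glmQLFit and glmQLFTest) over 31 libraries and 12 groups, without the 5 libraries listed with few mapped reads, so that all groups share the estimate of the spread. Tests were two-sided with Benjamini-Hochberg adjustment over all gene models tested and a threshold of 0.05. Alternatives covered normalisation, filter, libraries in the fit, replicate block, length covariate, DESeq2 1.42.0, limma 3.58.1 on log2(TPM + 1) and log2(TPM + 0.1), thresholds and each replicate left out. R 4.3.3, Python 3.11.15, NumPy 2.4.6 and pandas 2.3.3 were used. The length covariate is the mean, over expected counts, of the inverse model length, centred. Length classes of libraries were split at the widest gap in it and are not conditions; fits with the class as a term or the covariate within each tissue, the replicates left out of the covariate fit and those left out of the aerial lists were added after the data had been seen.

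Without gene names, the rule named by identifier the 2 higher and 2 lower gene models with the largest log2 fold change among those called, with groups that do not overlap and a mean TPM of at least 10 in the higher group. Since 0 were called lower, the lower ones were taken by this rule from the covariate fit. The comparison, lists and rule were chosen with earlier results of these data known. In simulated counts for 39333 gene models at these library sizes, 200 of them given a change of 2 on the log2 scale, the fit recovered 69% of the 200 and called 7 unchanged ones; this speaks for the simulated counts of that comparison only. Of all library pairs, 0 held identical counts.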

Additional observations from a re-analysis of the deposited data

Results flagged for a closer look

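Several results were marked because the same contrast, ZT12 against ZT0, gave different changes in 2 tissues by a test of the difference itself (edgeR's quasi-likelihood test, adjusted p under 0.05). The change was higher in root than in shoot for 206 gene models and lower for 343, and it was higher in root than in shoot apex for 435 and lower for 293. For Nitab4.5_0001617g0060.1 the change in root exceeded that in shoot by 3.67 on the log2 scale, and for Nitab4.5_0000005g0090.1 the change in root exceeded that in shoot apex by 3.09, which is a smaller decrease in root. Nitab4.5_0001617g0060.1 was at no more than 0.88 TPM in any shoot library. It was named for its increase in root, whose values the test of the difference reuses. Groups of 3 libraries were too small to look for single outlying libraries.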

How the results depend on the processing

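The direction of the 4 named gene models held under all alternatives, which the naming rule largely set in advance by requiring groups without overlap. The number called in root did not hold. Against 2 higher and 0 lower, there were 4 higher with upper quartile scaling, 1 with legacy dispersions and 5 without a filter, and 0 with a threshold of 0.01, with the 6 root libraries alone, with a replicate block, and with both of these. The length covariate gave 69 higher and 35 lower, DESeq2 32 and 21, limma on log2(TPM + 1) 81 and 13, limma on log2(TPM + 0.1) 10 and 0, the length class as a term 40 and 19, and the covariate within each tissue 92 and 44. Leaving out each replicate gave 0 to 9 higher and 0 to 13 lower, the most without ZT0 replicate 3. Of the 53 gene models called by DESeq2, 43 (81.1%) were among the 104 of the covariate fit. Of the 94 called by limma on log2(TPM + 1), 38 (40.4%) were. The deviations of same-numbered libraries correlated at 0.671, -0.415 and 0.441 for replicates 1 to 3, and ZT12 replicate 2 correlated best with ZT0 replicate 1. All correlations were positive within a length class of libraries and negative between the classes. They therefore cannot show whether same-numbered libraries pair.

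For the change in root against shoot, 206 higher and 343 lower became 931 and 1327 with the length covariate, 410 and 555 with DESeq2, 725 and 1054 with the class term and 994 and 1450 with the covariate within each tissue, while the replicate block gave 159 and 215 and limma on log2(TPM + 1) 277 and 291. Against shoot apex, 435 and 293 became 1502 and 1206, 785 and 494, 1270 and 913, and 1766 and 1443 in the same order, and the block gave 295 and 177. Limma gave 271 higher and 302 lower in root than in shoot apex on log2(TPM + 1) and 228 and 261 on log2(TPM + 0.1), so the excess of higher over lower turned round. Each replicate left out gave 112 to 224 higher and 216 to 384 lower against shoot, with the lowest counts without shoot ZT12 replicate 1, and 256 to 500 higher and 177 to 353 lower against shoot apex, with the lowest without shoot apex ZT12 replicate 3 and without root ZT12 replicate 1. Counts also moved by over 1.5 times without root ZT0 replicate 2 (131 and 262 higher), shoot ZT12 replicate 2 (119 higher than shoot) and shoot apex ZT0 replicate 1 (271 higher than shoot apex), and without root ZT12 replicate 1 223 were lower than in shoot. The cause of these shifts was not tested.

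Gene models expressed at ZT0 and not at ZT12 numbered 1008 in place of 626 when 2 of 3 replicates sufficed. The root median difference in log2(TPM + 1) of the gene models higher in both aerial tissues was 0.17, and 0.11 to 0.22 with each replicate left out, lowest without ZT0 replicate 1. For those lower in both it was -0.10, and -0.12 to -0.02, nearest to 0 without ZT0 replicate 3 and -0.06 without ZT12 replicate 3. With 3 replicates a time-point and a median standard error of 0.39, changes of under 1 on the log2 scale are beyond the precision of most gene models. Most fitted changes of at least 1 were not called either.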
